A study of Mus musculus with 12 samples.

Results

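The genes described here are 32 genes of the germline, of meiosis and of the piRNA pathway, found by their symbols among the 19996 genes measured in serum medium and the 19718 genes measured in 2i medium. All 32 symbols were found in each of the 3 comparisons. They fall into 10 regulators and structural proteins of germ cells, 11 proteins of piRNA production and transposon silencing, and 11 proteins of meiotic chromosomes. A mean of 1 FPKM (fragments scaled to transcript length and library size) was reached by 30 of the 32 in at least 1 of the 6 groups, and by 21 of them in all 6. Spo11 and Tdrd9 stayed below it in every group.

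Polyadenylated RNA of mouse embryonic stem cells was sequenced in 12 libraries, 2 for each of the 6 groups. Foxd3 is a forkhead transcription factor of pluripotent cells. In Foxd3fl/fl;Cre-ER cells both alleles are floxed, and 4-hydroxytamoxifen activates the recombinase that removes them. In SL, a medium with 15% fetal bovine serum and LIF on irradiated mouse embryonic fibroblasts, these cells were given 4-hydroxytamoxifen at 2 µM for 3 days (SL Foxd3-/-) or left untreated (SL Foxd3fl/fl). The same line and treatment were used in 2i, a serum-free N2B27 medium with the MEK inhibitor PD0325901 at 0.4 µM, the GSK3β inhibitor CHIR99021 at 3 µM and LIF, for which no feeders are named (2i Foxd3-/- and 2i Foxd3fl/fl). The third comparison set cells in which doxycycline switches on Foxd3 (tetON Foxd3) against LF2 wild-type cells (WT). Doxycycline was given to both at 1 µg/µl over 3 days, in feeder-free medium with serum at the same 15% and LIF. No group received 4-hydroxytamoxifen without the floxed alleles, and the labels name no induced control vector and no uninduced tetON cells. Whether a group's 2 libraries are separate cultures is not stated in the labels. All p-values therefore reflect only how far these libraries differ, which may be technical.

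In the mouse, primordial germ cells arise from the epiblast, erase most of their DNA methylation and then switch on genes such as Dazl and Ddx4. Germ cells entering meiosis induce Stra8 in response to retinoic acid, build the synaptonemal complex and cohesin axes along their chromosomes, and in the male use Piwi-bound small RNAs to silence transposons. Embryonic stem cells transcribe many of these genes at low levels. Promoter DNA methylation and a Polycomb complex that contains MGA, MAX and E2F6 keep them down, and MGA with MAX binds the E-box CACGTG while E2F6 binds the E2F site.

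The sequences before the start sites were examined for these motifs. RefSeq (GRCm38.p6) gave a promoter for 28 of the 32 genes. In the 250 bases before the start, the E-box CACGTG, which reads the same on both strands, was present in 14 of 28 (50%), against 6.05% of the 27025 promoters of all genes. The E2F site TCCCGC, searched on both strands, was present in 9 of 28 (32.1%), against 16.9% of all. Both motifs were found in 4 of the 28 (14.3%), namely Ddx4, Mael, Sycp3 and Hormad1, against 1.47% of all. The forkhead motif TGTTTAC, searched on both strands, was in 0 of the 28, against 3.09% of all. These windows held a median of 15 CpG (5 to 31), against 6 in all promoters, and the E-box itself contains a CpG. Among the 13808 promoters with 5 to 31 CpG, 8.51% held the E-box and 26.5% the E2F site. Among the 7436 with at least 15 CpG, 9.92% held the E-box and 42.7% the E2F site, the latter above the share of these 28. The E-box and the E2F site can overlap by at most 1 base, and a match describes the sequence only.

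Printed next are 6 of these windows, 5′ to 3′ on the strand of the gene, with the E-box in capitals. Sohlh2, Taf7l, Fkbp6, Tdrd12 and Sycp1 are shown because they passed the test in more than 1 of the contrasts described later. Stra8 was added after its values were seen, since it had the largest difference of the 32 genes in SL. They lie at chr6:34920698-34920947 (Stra8, plus strand), chr3:55181794-55182043 (Sohlh2, plus strand), chrX:134476491-134476740 (Taf7l, minus strand), chr5:135350045-135350294 (Fkbp6, minus strand), chr7:35537716-35537965 (Tdrd12, minus strand) and chr3:102936101-102936350 (Sycp1, minus strand). In the GENCODE M21 annotation the 250 bases shown for Stra8 lie within the span of the gene, whose most upstream start is at 34920163.
Stra8: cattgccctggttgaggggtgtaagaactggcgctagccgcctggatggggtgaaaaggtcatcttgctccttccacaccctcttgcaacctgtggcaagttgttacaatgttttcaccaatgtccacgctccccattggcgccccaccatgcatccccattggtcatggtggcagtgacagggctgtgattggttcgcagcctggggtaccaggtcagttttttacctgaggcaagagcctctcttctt
Sohlh2: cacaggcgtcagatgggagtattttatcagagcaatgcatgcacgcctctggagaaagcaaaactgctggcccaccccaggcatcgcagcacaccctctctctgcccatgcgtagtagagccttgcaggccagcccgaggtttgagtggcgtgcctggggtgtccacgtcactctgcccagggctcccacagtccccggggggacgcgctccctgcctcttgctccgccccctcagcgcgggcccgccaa
Taf7l: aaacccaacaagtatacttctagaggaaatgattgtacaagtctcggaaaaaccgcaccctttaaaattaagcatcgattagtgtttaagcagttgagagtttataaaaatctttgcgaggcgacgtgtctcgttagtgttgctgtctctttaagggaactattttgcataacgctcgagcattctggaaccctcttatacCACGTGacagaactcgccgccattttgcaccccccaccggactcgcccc
Fkbp6: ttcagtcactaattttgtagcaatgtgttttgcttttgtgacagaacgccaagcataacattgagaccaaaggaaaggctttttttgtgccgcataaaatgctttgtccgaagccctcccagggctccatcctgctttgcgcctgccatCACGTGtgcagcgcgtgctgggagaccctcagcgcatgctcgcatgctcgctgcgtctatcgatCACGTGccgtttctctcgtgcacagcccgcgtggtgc
Tdrd12: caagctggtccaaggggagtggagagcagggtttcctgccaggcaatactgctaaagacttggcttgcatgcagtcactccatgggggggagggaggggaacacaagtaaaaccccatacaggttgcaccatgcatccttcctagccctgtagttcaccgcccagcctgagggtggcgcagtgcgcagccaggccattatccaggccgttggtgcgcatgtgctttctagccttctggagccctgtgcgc
Sycp1: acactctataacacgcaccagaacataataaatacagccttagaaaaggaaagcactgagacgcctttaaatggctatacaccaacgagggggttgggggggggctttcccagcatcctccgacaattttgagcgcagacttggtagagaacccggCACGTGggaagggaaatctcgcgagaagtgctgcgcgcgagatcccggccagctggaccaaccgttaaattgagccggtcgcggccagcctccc
Fkbp6 carries the E-box at 2 places, Taf7l and Sycp1 at 1 each, and Stra8, Sohlh2 and Tdrd12 at none. None of the 6 holds the E2F site.

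Several genes of meiotic chromosomes were abundant in all 12 libraries. Syce2, a central element protein of the synaptonemal complex, ranged from 56.0 to 107 FPKM, the cohesin subunit Stag3 from 21.4 to 95.2, the axial protein Sycp3 from 21.3 to 88.3 and the axis protein Hormad1 from 13.1 to 76.1. Of the piRNA genes, Tex19.1 and Tdrd12 reached the highest levels in any single library, though not in every group. Tdrd12, a tudor domain protein of piRNA production, lay between 54.6 and 81.5 FPKM in the 8 libraries of the Cre-ER line and between 3.30 and 15.2 in the 4 of the overexpression experiment. Tex19.1, which limits transposons in germ cells and placenta, was at 108 to 167 FPKM in SL and at 23.4 to 49.4 in all other libraries. Spo11, the enzyme that makes the meiotic double-strand breaks, reached at most 0.252 FPKM, and the piRNA helicase Tdrd9 at most 0.299. The tables of the 3 comparisons may have been normalized separately, so these levels are set side by side and were not tested against each other.

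Which members were high differed between SL, 2i and the overexpression experiment. Medium, line and feeders vary among these and cannot be told apart. Fkbp6, a co-chaperone of piRNA loading, was at 22.2 to 46.8 FPKM in the 4 libraries in 2i, at 3.02 to 4.54 in SL and at 0.822 to 7.03 in the overexpression experiment. Sohlh2, a transcription factor of spermatogonia and oocytes, was at 12.9 to 30.9 in 2i and 17.4 to 30.5 in the overexpression experiment, but at 3.54 to 3.98 in SL. Piwil4, the nuclear Piwi protein, was at 0.115 to 0.265 in 2i and at 1.07 to 2.35 in SL. A mean of at least 10 FPKM was reached by 6 (SL Foxd3-/-), 8 (SL Foxd3fl/fl), 11 (2i Foxd3-/-), 12 (2i Foxd3fl/fl), 10 (tetON Foxd3) and 13 (WT) of the 32 genes. Their summed FPKM was 415 and 414 in SL Foxd3-/-, 514 and 450 in SL Foxd3fl/fl, 393 and 409 in 2i Foxd3-/-, 488 and 475 in 2i Foxd3fl/fl, 506 and 388 in tetON Foxd3, and 620 and 455 in WT.

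**Figure D1:**
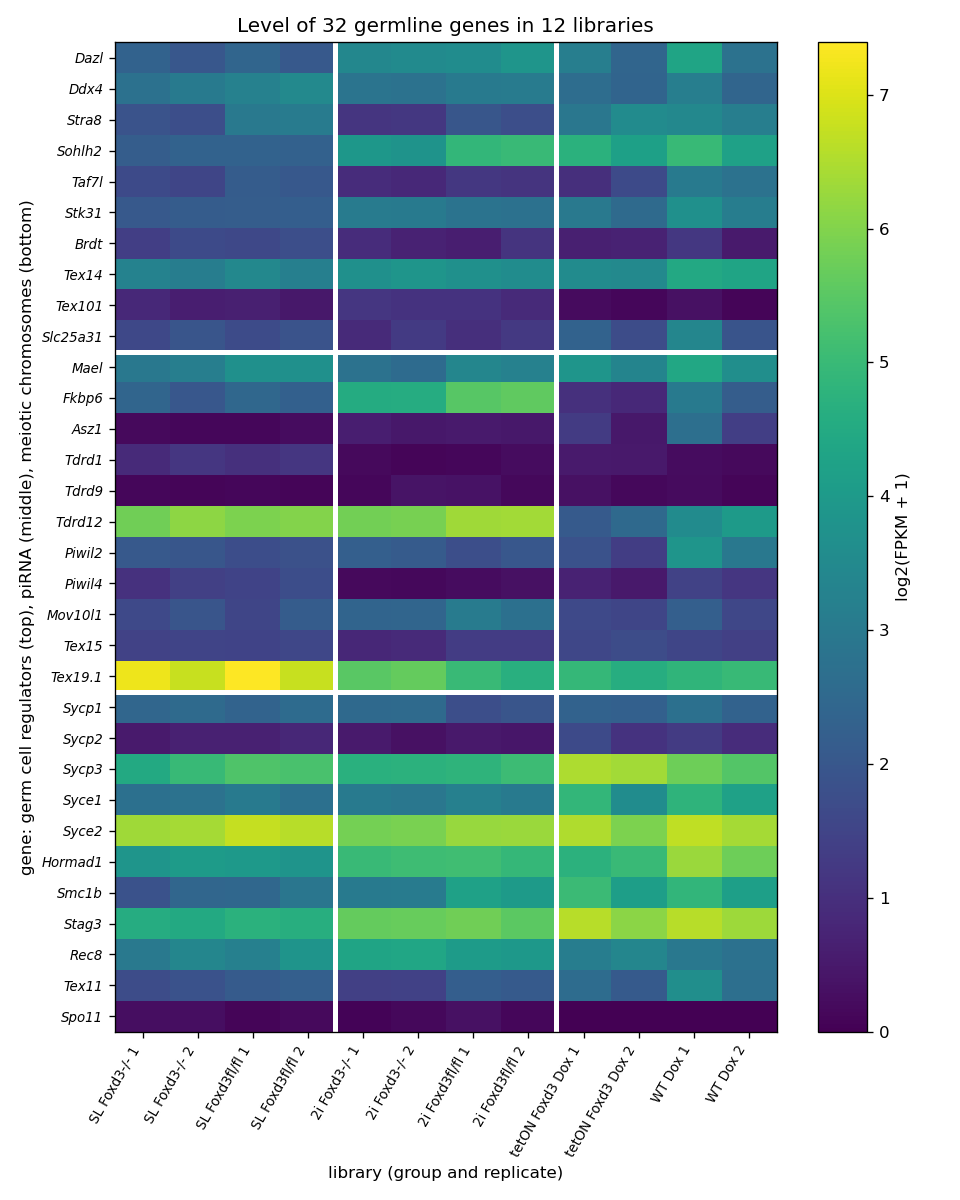
Level of each of the 32 genes (rows, by role) in each of the 12 libraries (columns, by group and replicate) as log2(FPKM + 1), where brighter is higher. Syce2, Stag3 and Sycp3 are bright in every library, Tdrd12 is bright in the 8 libraries of the Cre-ER line only, and Fkbp6 is brighter in the 4 libraries in 2i than in the other 8.

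Foxd3 itself checks the labels. It was at 1.62 and 1.83 FPKM in SL Foxd3-/- against 4.53 and 4.81 in SL Foxd3fl/fl (limma adjusted p = 0.137), and at 53.2 and 50.1 in tetON Foxd3 against 10.6 and 14.1 in WT (limma adjusted p = 0.0145). In 2i it was at 2.07 and 2.45 in the libraries labelled Foxd3-/- against 2.51 and 2.42 in Foxd3fl/fl (limma adjusted p = 0.461), so its level does not bear out the labels there, and those libraries are called labelled Foxd3-/- throughout. The sources used here do not give which part of the gene is removed. The authors' deposited tables give summed mean reads of 24278898 to 27062508 per group in 2i and of 52789850 to 54096080 in the other groups, and 11033 to 11919 genes reached 1 FPKM in a library. The 8 embryonic stem cell markers looked at summed to 1107 to 2703 FPKM per library, so the markers of the labelled cell type were present. Of 12 spermatid and sperm markers 8 were listed and 2 were high enough to test, and of 10 oocyte markers 8 were listed and 1 was.

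In SL, none of the 32 genes passed the test after deletion when replicate number was left out of the fit. The median log2 difference of all genes was -0.01, while 24 of the 27 members that could be tested had a negative difference. Stra8, the gatekeeper of meiotic entry that retinoic acid induces, had the largest one. Stra8 stood at 2.70 and 2.42 FPKM in Foxd3-/- against 6.87 and 7.51 in Foxd3fl/fl, so both deleted libraries lay below both floxed ones. Its mean was 2.81-fold lower and its log2 difference was -1.20 (SE 0.14), with a limma adjusted p of 0.0873. In the authors' deposited table Stra8 was 2.7-fold lower, and the deposited p-value, adjusted here over all genes, was 0.00383. In bulk RNA fewer expressing cells and less RNA per cell cannot be told apart, here and in what follows.

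The test (limma on log2(FPKM + 1), adjusted over 12024 genes, threshold 0.05) called 0 of 27 members higher and 0 lower in SL. Over all genes it called 0.00832% higher and 0% lower. With no adjustment, 0 members were higher and 7 lower at p under 0.05, as were 1097 of all genes in either direction. By the deposited p-values 0 members were higher and 1, Stra8, was lower, against 0.44% and 0.095% of all genes. Both libraries of one group stood on one side of both of the other for 1 member in the higher and 11 in the lower direction, of 27, against 19.7% and 17.3% of all genes tested. The median log2 difference of the 27 was -0.13, against -0.01 for all genes. Replicate differences of the groups correlated at 0.605 over all genes, and members were called lower when replicate number was fitted as a block. Those counts are given at the end, since the labels do not say what the numbers mark. A call of Stra8 depended on the libraries in the fit: with all 12 libraries its limma adjusted p was 0.0172, without SL Foxd3-/- replicate 1 its limma adjusted p was 0.000741, without replicate 2 it was 0.00136, and without either floxed library it was 0.097 and 0.134.

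Among the germ cell regulators, 3 others had both deleted libraries below both floxed ones. Ddx4, the RNA helicase of germ granules, was at 5.75 and 7.32 FPKM against 8.47 and 10.1. Taf7l, a germ cell relative of a TFIID subunit, was at 2.13 and 1.92 against 3.45 and 3.08. Stk31, a kinase-like germ cell protein, was at 3.21 and 3.40 against 3.55 and 3.59, a gap that is small beside its level. Dazl, an RNA-binding protein that licenses germ cells, overlapped between the groups (3.02 to 4.33 FPKM over the 4 libraries), as did Sohlh2 (3.54 to 3.98), the intercellular bridge protein Tex14 (7.73 to 9.87), the testis bromodomain protein Brdt (1.60 to 2.39) and the germ cell ADP/ATP carrier Slc25a31 (2.02 to 2.84). Tex101, a sperm surface protein, was at 0.387 to 0.807 and was not tested.

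Of the piRNA genes, Mael had the largest difference in SL. Mael, a protein of germ granules and piRNA production, was at 6.73 and 7.89 FPKM in Foxd3-/- against 11.9995 and 11.9993 in Foxd3fl/fl (log2 difference -0.65, SE 0.14, limma adjusted p = 0.206). Piwil4 was at 1.07 and 1.64 against 1.80 and 2.35, and its exons overlap those of Gm10706 on the other strand, so reads of the pair may be mixed. Piwil2, the cytoplasmic Piwi protein that cuts transposon RNA, was the 1 tested member with both deleted libraries above both floxed ones, at 3.20 and 2.91 against 2.33 and 2.56. The groups overlapped for Tdrd12 (54.6 to 69.0 FPKM), Tex19.1 (108 to 167), Fkbp6 (3.02 to 4.54), the piRNA helicase Mov10l1 (1.89 to 3.43), the transposon-silencing protein Tex15 (1.77 to 2.00) and the tudor protein Tdrd1 (0.848 to 1.25). Asz1, a germ granule protein at mitochondria, was at 0.0841 to 0.193 and, like Tdrd9, was not tested.

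The meiotic chromosome genes had a median log2 difference of -0.32 over the 9 tested, the most negative of the 3 roles in SL. Sycp3 was at 21.3 and 30.8 FPKM in Foxd3-/- against 40.0 and 37.8 in Foxd3fl/fl. Syce2 was at 79.1 and 83.4 against 107 and 96.4. Tex11, a crossover protein encoded on the X chromosome, was at 2.28 and 2.60 against 3.39 and 3.70. In these 3 genes, as in the meiotic cohesin subunits Smc1b (2.62 and 4.44 against 4.55 and 6.41) and Stag3 (22.9 and 21.4 against 25.4 and 23.8), both deleted libraries were the lower ones. The groups overlapped for the cohesin subunit Rec8 (6.86 to 13.1), Hormad1 (13.1 to 15.7), the transverse filament protein Sycp1 (4.15 to 4.94) and the central element protein Syce1 (5.63 to 7.26). Sycp2, an axial partner of Sycp3, was at 0.444 and 0.611 against 0.616 and 0.764, and Spo11 was higher in both deleted libraries, at 0.198 and 0.209 against 0.0739 and 0.146. Neither was tested.

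Markers of fibroblasts, the feeder cells, moved with the groups in SL. The 21 of 22 that were listed summed to 970 to 1140 FPKM in Foxd3-/- and to 759 to 772 in Foxd3fl/fl, and the 18 tested had a median log2 difference of 0.52. None passed limma, and 5 (Bgn, Thbs1, Fbn1, Col1a2 and Col5a1) were higher by the deposited p-values. None of the 21 was listed at 0 in all 4 libraries. Their part in the lower values of the 24 members was not tested.

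In 2i members passed the test in both directions. Of 25 genes tested, 12 fell in the libraries labelled Foxd3-/- and 4 rose, by limma. Among the 12, Taf7l and Tex15 had a mean of at least 1 FPKM in Foxd3fl/fl only. They were therefore tested through the group where they were higher. Sohlh2, Smc1b and Fkbp6 fell 2.22-fold, 2.26-fold and 2.01-fold, and Tex19.1 and Sycp1 rose 1.71-fold and 1.82-fold. In the authors' deposited table these falls were 2.6-fold, 2.63-fold and 2.79-fold, and the rises 1.46-fold and 1.5-fold. Over 10235 genes with over 100 mean reads, the log2 FPKM ratio in 2i lay a median of 0.233 above the log2 deposited fold. This median was 0.028 in SL and 0.0208 with overexpression. In 2i most genes differed: limma called 47.9% of 11637 genes higher and 19.7% lower. The median of all genes was 0.19 on the log2 scale, and that of the 25 members was -0.23. After median-of-ratios scaling these medians were 0.02 and -0.40, all genes split into 3861 higher and 3621 lower in place of 5573 and 2291, and the members into 2 higher and 15 lower.

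By the deposited p-values 2 members were higher and 16 lower, against 20.6% and 20.2% of all genes. Both libraries of one group stood on one side of both of the other for 5 members in the higher and 15 in the lower direction, against 58.7% and 26.6% of all genes tested. By role, limma called 1 of 9 germ cell regulators higher and 4 lower, 1 of 7 piRNA genes higher and 5 lower, and 2 of 9 meiotic chromosome genes higher and 3 lower. The 2 calls of a rise lost after scaling were Stk31 and Rec8, and the 3 members called lower there in addition were Dazl, Sycp3 and Syce1.

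Of the germ cell regulators in 2i, Sohlh2 changed most. Sohlh2 was at 13.9 and 12.9 FPKM in the libraries labelled Foxd3-/- against 28.6 and 30.9 in Foxd3fl/fl (log2 difference -1.09, SE 0.08, limma adjusted p = 1.40e-05). Stra8 was at 1.21 and 1.29 against 2.90 and 2.42 (log2 difference -0.70, SE 0.11, limma adjusted p = 0.000592). The groups did not overlap for either gene. Ddx4 fell from 7.25 and 7.40 to 6.18 and 5.86 (limma adjusted p = 0.0389), and Taf7l from 1.30 and 1.18 to 0.916 and 0.789 (limma adjusted p = 0.0379). The mean of Taf7l was 0.852 FPKM in the libraries labelled Foxd3-/- and 1.24 in Foxd3fl/fl, so it was tested through Foxd3fl/fl alone. Stk31, at 7.36 and 7.29 against 6.08 and 5.82, passed the test upward (limma adjusted p = 0.0306), but its log2 difference of 0.26 was close to the median of all genes and was 0.09 after scaling (limma adjusted p = 0.349). The call of Ddx4 was lost without any 1 of the 4 libraries (limma adjusted p = 0.0577 to 0.218). Those of Taf7l and Stk31 were each lost without any of 3 libraries, the exceptions being Foxd3fl/fl replicate 2 for Taf7l and Foxd3fl/fl replicate 1 for Stk31.

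The remaining regulators did not pass in 2i. Dazl was at 9.78 and 10.7 FPKM against 11.1 and 13.3, with both labelled Foxd3-/- libraries the lower ones (limma adjusted p = 0.0772, and 0.0103 after scaling). The groups overlapped for Tex14 (11.1 to 13.5), Tex101 (0.838 to 1.24) and Slc25a31 (0.825 to 1.40). Brdt, at 0.540 to 1.15, was not tested.

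Fkbp6 changed most among the piRNA genes in 2i. Fkbp6 was at 22.2 and 22.8 FPKM in the libraries labelled Foxd3-/- against 43.7 and 46.8 in Foxd3fl/fl (log2 difference -0.98, SE 0.06, limma adjusted p = 1.09e-05). Mael was at 5.87 and 5.01 against 9.55 and 8.59 (log2 difference -0.65, SE 0.11, limma adjusted p = 0.000764). Tdrd12 was at 55.1 and 58.0 against 80.6 and 81.5 (log2 difference -0.51, SE 0.05, limma adjusted p = 8.49e-05). These 3 genes and Mov10l1 (4.26 and 4.30 against 7.504 and 5.57, limma adjusted p = 0.00817) fell with no overlap between the groups.

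Tex15 also passed downward by FPKM, at 0.758 and 0.833 against 1.51 and 1.49 (limma adjusted p = 0.00256). The authors' deposited table, however, gives mean reads of 131.31 and 132.91 and a fold of -1.01 for Tex15. The gap between its FPKM ratio and its deposited fold was farther from the median than that of all but 0.156% of genes with at least 100 mean reads, so the change of Tex15 is uncertain. Tex19.1 rose to 44.6 and 49.4 from 30.9 and 24.1 (log2 difference 0.76, SE 0.11, limma adjusted p = 0.000365), and it has a close paralog, Tex19.2, with which reads may be shared. Piwil2 had both labelled Foxd3-/- libraries above both floxed ones, at 3.69 and 3.32 against 2.40 and 3.04, without passing (limma adjusted p = 0.0606). Asz1 (0.394 to 0.553), Tdrd1 (0.0765 to 0.193), Tdrd9 (0.0931 to 0.299) and Piwil4 (0.115 to 0.265) were not tested.

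Of the meiotic cohesin subunits in 2i, Smc1b fell, while Rec8 passed limma upward before scaling but not after. Smc1b fell to 7.14 and 7.496 FPKM from 17.8 and 15.4 (log2 difference -1.08, SE 0.09, limma adjusted p = 3.51e-05). Rec8 was at 19.0 and 19.7 against 15.7 and 14.3 (log2 difference 0.35, limma adjusted p = 0.00366). After scaling its difference was 0.17 (limma adjusted p = 0.0666). The authors' deposited fold for Rec8 was 1.04 (adjusted here p = 0.733). Stag3 overlapped between the groups at 45.2 to 53.8. Its log2 difference of 0.02 turned to -0.17 after scaling, as that of Hormad1 (29.2 to 34.0 FPKM) turned from 0.02 to -0.16, and neither passed under either scale. In the authors' deposited table both were lower, Hormad1 1.28-fold (adjusted here p = 2.26e-05) and Stag3 1.19-fold (adjusted here p = 0.000316).

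Synaptonemal complex genes split in 2i. Sycp1 rose to 4.73 and 4.93 FPKM from 2.42 and 2.90 (log2 difference 0.68, SE 0.11, limma adjusted p = 0.000643). Syce2 fell to 56.0 and 59.1 from 75.6 and 76.5 (log2 difference -0.40, SE 0.05, limma adjusted p = 0.00031), and the crossover gene Tex11 to 1.65 and 1.70 from 3.61 and 3.25 (log2 difference -0.73, SE 0.10, limma adjusted p = 0.000337). Sycp3, at 24.8 and 26.0 against 27.0 and 32.8, and Syce1, at 7.18 and 6.66 against 8.27 and 7.34, had both labelled Foxd3-/- libraries below without passing (limma adjusted p = 0.0566 and 0.199). Both passed after scaling (limma adjusted p = 0.00673 and 0.0191). Sycp2 (0.258 to 0.452) and Spo11 (0.0484 to 0.252) were not tested.

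Of the 11 tested members with both deleted libraries the lower ones in SL, 7 (63.6%) were among the 12 that fell in 2i (58.3%): Ddx4, Mael, Smc1b, Stra8, Syce2, Taf7l and Tex11. Of all 25 members tested in 2i, 48% fell. Piwil4, among the 11, was not tested in 2i, so the 63.6% and the 48% rest on unlike bases. These comparisons share no libraries, but the SL members are chosen by no overlap alone, with no test behind it. Taf7l, among the 7, was tested in 2i through its Foxd3fl/fl mean alone.

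**Figure D2:**
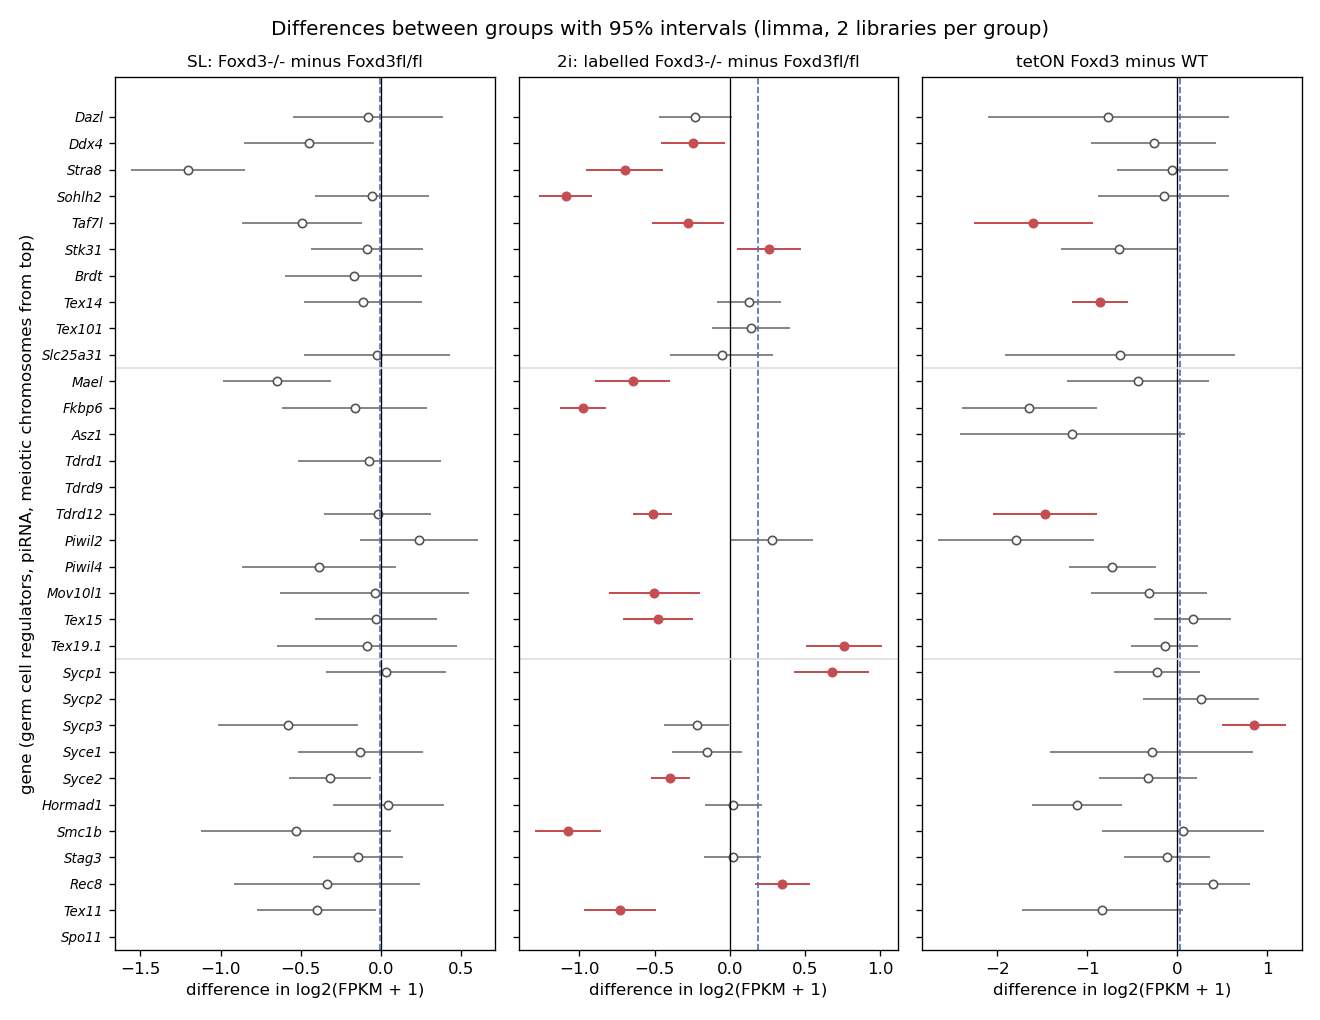
Difference between groups in log2(FPKM + 1) for each tested gene (points) with its 95% interval (lines) in the 3 comparisons, with separate horizontal scales. Filled red points passed limma at an adjusted p of 0.05, open points did not, the dashed line is the median of all genes tested, and no point is red in SL, 16 are in 2i and 4 are with overexpression.

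Whether the change differed between the media was tested as the change in 2i minus the change in SL, over the 8 libraries. Of 28 members tested, 3 had a lower and 1 a higher change in 2i, against 5.55% and 18.4% of 12497 genes. Sohlh2 changed by -1.09 in 2i and by -0.06 in SL (difference -1.04, SE 0.15, limma adjusted p = 0.00527). Fkbp6 changed by -0.98 and -0.17 (difference -0.81, SE 0.20, limma adjusted p = 0.0226). Tdrd12 changed by -0.51 and -0.02 (difference -0.49, SE 0.15, limma adjusted p = 0.0453), and Sycp1 by 0.68 and 0.03 (difference 0.65, SE 0.18, limma adjusted p = 0.035). Mael had nearly the same difference in both (-0.65 and -0.65), and the 95% interval of the difference between media ran from -0.39 to 0.39. For Stra8 the difference was 0.50 (95% interval 0.11 to 0.89, limma adjusted p = 0.0632).

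The median of this difference was 0.17 for all genes and 0.01 for the 28 members. After scaling, 0 members had a higher and 4 a lower change in 2i, with Sycp1 at 0.50 (limma adjusted p = 0.077). Without any 1 of the 4 libraries in 2i, 1 member, Sohlh2, stayed called in the lower direction, and Sycp1 passed when SL Foxd3fl/fl replicate 1 was left out but missed the threshold when any of the other 7 libraries was. Medium and feeders differ together between SL and 2i, and cannot be told apart.

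With Foxd3 overexpression, Taf7l fell 4.22-fold, Tdrd12 3.23-fold and Tex14 1.90-fold, and Sycp3 rose 1.80-fold. Limma called 1 of 27 members higher and 3 lower, against 0.994% and 1.65% of 11972 genes. With no adjustment, 2 members were higher and 8 lower at p under 0.05, as were 2486 of all genes in either direction. By the deposited p-values 2 members were higher and 6 lower, against 1.96% and 2.59% of all genes. Both libraries of one group stood on one side of both of the other for 3 members in the higher and 10 in the lower direction, against 29.5% and 22.8% of all genes tested. The median log2 difference of the 27 was -0.33, against 0.03 for all genes. Replicate differences of the groups correlated at 0.596 over all genes, and more members were called lower with a replicate block, as given at the end.

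Taf7l was at 0.978 and 2.15 FPKM in tetON Foxd3 against 7.27 and 5.93 in WT (log2 difference -1.60, SE 0.26, limma adjusted p = 0.0492). Tex14 was at 10.9 and 10.1 against 20.8 and 19.0 (log2 difference -0.86, SE 0.12, limma adjusted p = 0.0399). The libraries of a group were close to each other for Tex14 and far apart for Taf7l in tetON Foxd3. Stk31 was at 6.92 and 4.89 against 12.1 and 7.74, without passing (limma adjusted p = 0.231). The groups overlapped for Dazl (4.32 to 19.07), Ddx4 (4.23 to 7.89), Stra8 (6.64 to 10.9), Sohlh2 (17.4 to 30.5) and Slc25a31 (2.28 to 9.60). Brdt (0.462 to 1.29) and Tex101 (0.0702 to 0.248) were not tested.

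The piRNA genes had the lowest median log2 difference of the roles, -0.72 over the 9 tested. Tdrd12 was at 3.30 and 4.73 FPKM in tetON Foxd3 against 10.8 and 15.2 in WT (log2 difference -1.47, SE 0.23, limma adjusted p = 0.0445). Fkbp6 was at 1.02 and 0.822 against 7.03 and 3.498 (log2 difference -1.65, SE 0.30, limma adjusted p = 0.0558). Piwil2 was at 2.65 and 1.54 against 13.4 and 6.75 (log2 difference -1.79, SE 0.34, limma adjusted p = 0.0626). In all 3 both tetON Foxd3 libraries were below both WT libraries, and the WT libraries of Fkbp6 and Piwil2 were far apart. The deposited p-values, adjusted here, gave 0.0495 for Fkbp6 and 0.0815 for Piwil2 from the authors' deposited table.

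Piwil4 was at 0.619 and 0.415 against 1.76 and 1.26, and Asz1 at 1.44 and 0.378 against 5.52 and 1.59. Piwil4 was lower by the authors' deposited table (2.99-fold, adjusted here p = 0.0121) and did not pass limma (adjusted p = 0.111). Tex15, at 1.95 and 2.32 against 1.94 and 1.63, had both tetON Foxd3 libraries above by a narrow margin. Tdrd1 was below the level tested, at 0.442 and 0.419 against 0.175 and 0.145, and was 3.35-fold higher in the authors' deposited table (adjusted here p = 0.0495). The groups overlapped for Mael (9.12 to 20.7), Mov10l1 (1.92 to 3.72) and Tex19.1 (23.4 to 30.8), and Tdrd9 (0.0803 to 0.268) was not tested.

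Sycp3 was the 1 member that limma called higher with overexpression. Sycp3 stood at 88.3 and 82.2 FPKM in tetON Foxd3 against 53.2 and 41.3 in WT (log2 difference 0.85, SE 0.14, limma adjusted p = 0.0494), and exon bases of it are shared with Chpt1 on the opposite strand. Hormad1 was at 26.2 and 31.5 against 76.1 and 52.9 (log2 difference -1.12, SE 0.19, limma adjusted p = 0.0534), and was lower by the authors' deposited table (2.3-fold, adjusted here p = 0.0176). Rec8 had both tetON Foxd3 libraries above, at 7.79 and 9.43 against 6.77 and 5.77, and Tex11 both below, at 5.09 and 3.27 against 11.7 and 5.53. Neither passed (limma adjusted p = 0.24 and 0.263).

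For the other meiotic chromosome genes the groups overlapped: Smc1b (16.7 to 31.8 FPKM), Stag3 (67.3 to 95.2), Syce1 (10.97 to 28.8), Syce2 (59.8 to 103), Sycp1 (3.85 to 5.69) and Sycp2 (0.931 to 2.18). Spo11 was listed at 0 in 3 of the 4 libraries and at 0.00839 in tetON Foxd3 replicate 1. Of the 12 members that fell in 2i, 2 (16.7%), Taf7l and Tdrd12, were among the 3 that fell with overexpression (66.7%), so these had lower values both in the libraries labelled Foxd3-/- and with more Foxd3. Of all 27 members tested with overexpression, 11.1% fell. In 2i Taf7l was tested through its Foxd3fl/fl mean alone.

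**Figure D3:**
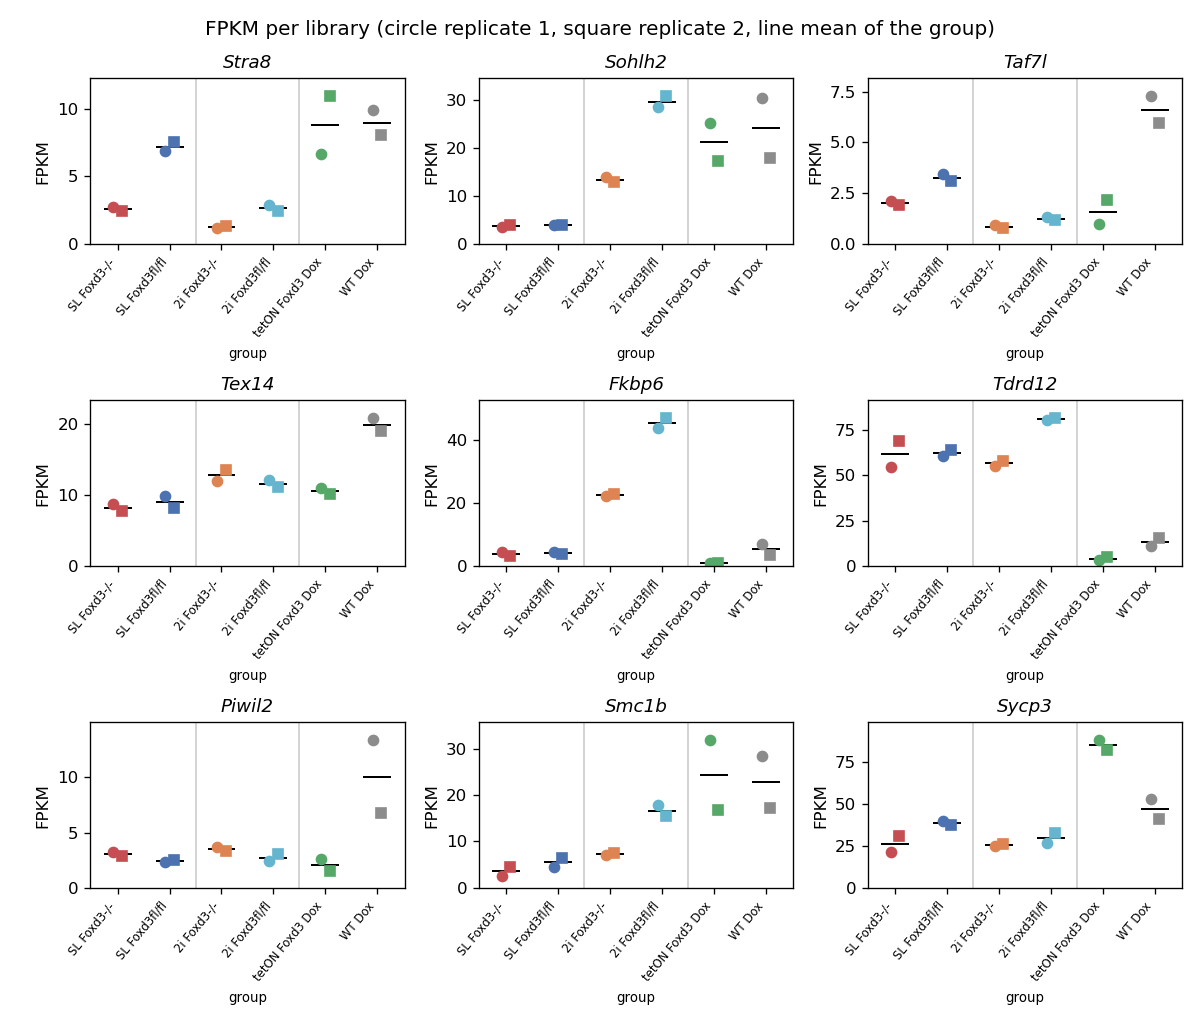
FPKM of 9 genes in each library, by group, on axes that start at 0, with a circle for replicate 1, a square for replicate 2 and a line at the mean of the group. Both libraries labelled Foxd3-/- in 2i are below both floxed ones for Stra8, Sohlh2, Fkbp6, Tdrd12 and Smc1b, and both tetON Foxd3 libraries are below both WT ones for Taf7l, Tex14, Fkbp6, Tdrd12 and Piwil2 and above them for Sycp3.

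The spread between the 2 libraries of a group was wide for these genes in the overexpression experiment. In WT, Dazl was at 19.07 and 5.94 FPKM, Slc25a31 at 9.60 and 2.75 and Asz1 at 5.52 and 1.59, and in tetON Foxd3 Dazl was at 8.02 and 4.32. Replicate 1 was above replicate 2 for 29 of the 32 genes in WT and 25 in tetON Foxd3, 23 of them in both, against 51.4% and 53.7% of all genes tested. It was more than 1.5 times higher for 17 and 12 of the 32, against 6.77% and 6.8% of all genes tested. The median absolute log2 difference between replicates was 0.52 in WT and 0.49 in tetON Foxd3 for the members tested, against 0.15 and 0.15 for all genes. In the 4 groups of the Cre-ER line the same median was 0.07 to 0.20 for the members and 0.07 to 0.18 for all genes. What the replicate numbers stand for is not given in the labels.

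The calls with overexpression changed with the libraries in the fit. With all 12 libraries in 1 fit, 1 member was called higher and 8 lower. The share of all genes called in that fit is not given here. Without tetON Foxd3 replicate 1, or without WT replicate 1, 0 members were called in either direction, and without replicate 2 of either group 3 were called lower and 0 higher. Taf7l and Tdrd12 passed without tetON Foxd3 replicate 2 but not without any of the other 3 libraries, and Tex14 and Sycp3 missed the threshold without any 1 of the 4. The adjusted p-values of Sycp3 then ranged from 0.0515 to 0.103, and those of Tex14 from 0.0717 to 0.153. Hormad1 passed without replicate 2 of either group (limma adjusted p = 0.0441 without tetON Foxd3 replicate 2 and 0.0432 without WT replicate 2).

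**Figure D4:**
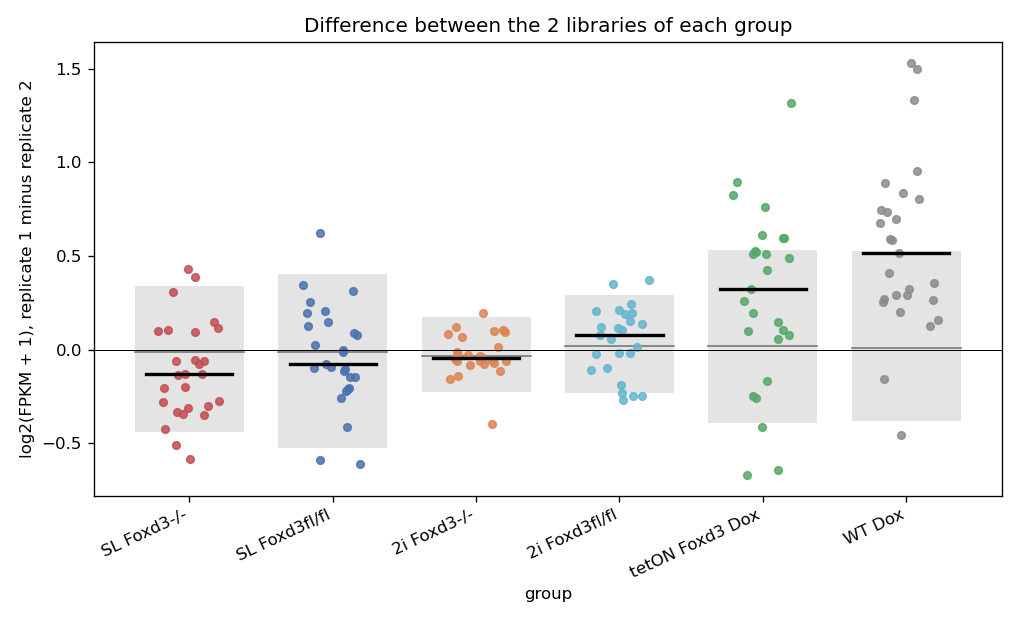
Difference between replicate 1 and replicate 2 in log2(FPKM + 1) for each tested gene of the 32 (points) in the 6 groups, with their median (black bar), the middle 90% of all genes tested (grey box) and the median of all genes (grey line). The black bars lie at 0.52 in WT and 0.32 in tetON Foxd3, where 13 and 7 of the 27 points are above the box, and between -0.13 and 0.08 in the other 4 groups.

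Other genes of the same pathways, from lists of other members, were counted for comparison. No gene of the 10 piRNA and germ granule genes tested or of the 14 meiosis genes tested passed limma in SL, and none of 9 and 16 did with overexpression. In 2i, 3 of 10 other piRNA and germ granule genes rose and 3 fell by limma, against 47.9% and 19.7% of all genes. Of the 13 listed, 2 were higher and 7 lower by the deposited p-values, against 20.6% and 20.2% of all genes. Pld6, a mitochondrial enzyme of piRNA production, fell to 12.3 and 11.2 FPKM from 23.5 and 23.9, and the Piwi partner Gtsf1 to 1.48 and 2.10 from 3.72 and 3.44. Tdrd7 rose to 1.498 and 1.39 from 0.623 and 0.509.

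Of 17 other meiosis genes in 2i, 6 rose and 6 fell. The recombination gene Spata22 rose to 1.80 and 1.98 FPKM from 0.251 and 0.207, and the mismatch repair gene Mlh3 to 5.79 and 6.78 from 2.12 and 1.55. Hormad2, the partner of Hormad1, fell to 34.8 and 34.8 from 47.8 and 51.6, and Hsf2bp to 57.6 and 56.4 from 77.0 and 86.9. By limma both directions were therefore equally frequent in this list, and 47.9% of all genes rose and 19.7% fell there. Of the 19 listed, 3 were higher and 7 lower by the deposited p-values, against 20.6% and 20.2% of all genes.

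Repressors of germline genes were expressed in all groups. Of 23 tested, 0 passed limma in SL, 7 rose and 6 fell in 2i, and 1 fell with overexpression. Among all genes 47.9% rose and 19.7% fell in 2i, and 1.65% fell with overexpression, by limma. With the deposited p-values 6 of the 23 were higher and 15 lower in 2i, against 20.6% and 20.2% of all genes. With overexpression they gave 2 higher and 1 lower, against 1.96% and 2.59% of all genes. Dnmt3l, the cofactor of DNA methylation in germ cells, was at 53.6 and 60.8 FPKM in tetON Foxd3 against 153 and 111 in WT (limma adjusted p = 0.0409), and in 2i it rose to 40.6 and 47.9 from 14.3 and 13.5. In 2i the Polycomb subunit Pcgf6 rose to 30.9 and 34.2 from 17.6 and 15.9. The catalytic Dnmt3b fell there to 11.2 and 12.02 from 21.2 and 19.4. The E-box partners Max and Mga were at 42.5 to 43.6 and 62.3 to 62.6 FPKM in tetON Foxd3 and at 40.2 to 43.2 and 58.7 to 66.7 in WT, and did not pass (limma adjusted p = 0.813 and 0.995).

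In the embryo, primordial germ cell specification comes before germ cells switch on genes such as Dazl and Ddx4. Of 12 genes of that step, none passed limma in SL, 8 rose and 3 fell in 2i, and 2 fell with overexpression. Among all genes 47.9% rose and 19.7% fell in 2i, and 1.65% fell with overexpression. Dppa3, a maternal and germ cell chromatin factor, was at 2.02 and 2.02 FPKM in tetON Foxd3 against 9.95 and 11.5 in WT, and Nanog at 250 and 255 against 367 and 339. Tfap2c, a germ cell specifier, rose in 2i to 55.4 and 63.4 from 30.9 and 31.8. In SL it was at 45.0 and 32.8 against 11.3 and 10.6, higher by the authors' deposited table (3.6-fold, adjusted here p = 0.0013) but not by limma (adjusted p = 0.0873).

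Genes of retinoic acid signalling, the pathway that induces Stra8, had 0 of 9 past limma in SL. In 2i 3 of 8 were higher and 3 of 8 lower, and 0 of 8 passed with overexpression. Among all genes 47.9% rose and 19.7% fell in 2i, and 0.994% rose and 1.65% fell with overexpression. Of the 14 listed, 1 was higher and 3 lower in 2i by the deposited p-values, against 20.6% and 20.2% of all genes. The binding proteins Crabp1 and Crabp2 fell in 2i, Crabp1 to 17.4 and 16.9 FPKM from 59.7 and 68.5 and Crabp2 to 8.06 and 8.52 from 40.6 and 43.5. Of 8 DNA demethylation genes, 0 passed in SL, 4 rose and 2 fell in 2i, and 1 rose with overexpression. Gadd45g was at 8.70 and 7.39 in tetON Foxd3 against 2.01 and 1.88, and in 2i it fell to 11.4 and 9.58 from 90.4 and 127. Genes of the 2-cell-like state, a rare state of these cultures, had 4 tested in SL (0 past limma), 0 in 2i and 2 with overexpression, where both fell. Zscan4c was at 0.493 and 0.489 against 3.49 and 4.48, and Zscan4d at 0.306 and 0.374 against 2.18 and 4.01.

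Markers of other cells moved with some groups outside SL as well. Fibroblast markers summed to 381 to 407 FPKM in tetON Foxd3 and 216 to 222 in WT, of which Vim alone, also expressed by stem cells, made up 258 and 296 against 137 and 152. In 2i they summed to 470 and 470 in the libraries labelled Foxd3-/- and to 523 to 535 in Foxd3fl/fl. Sertoli and Leydig cell markers summed to 47.2 to 55.5 in tetON Foxd3 and 116 to 128 in WT, mostly Rhox5 (40.5 and 35.6 against 101 and 116). In SL they summed to 175 to 241 in Foxd3-/- and 120 to 155 in Foxd3fl/fl, and in 2i to 15.1 to 16.1 over both groups. Their part in the members' differences was not tested.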

How the data were processed

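The authors deposited 1 table per comparison, with FPKM per library per the file headers. They also list per group an average read signal, a fold change as a ratio of groups and an unadjusted p-value from the authors' own test. In 2i the deposited p-value is rounded, so small ones are listed as 0, and they were adjusted here by Benjamini and Hochberg. Tool names in the submitters' processing notes are FastQC, TopHat2, SAMtools, Cufflinks and DESeq2, with the builds GRCm38 and mm10 and no version. The medium of each deletion table was read from the table's name. The depth of single libraries is unknown.

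FPKM is not a count, so each table was fitted alone with limma 3.58.1 (trend) in R 4.3.3 on log2(FPKM + 1), a scale that understates changes of low genes. Genes with a mean of at least 1 FPKM in a compared group were tested, with 2 residual degrees of freedom and p-values adjusted over all of them. For the difference between media, 1 fit held all 8 libraries of SL and 2i. An exact permutation of 2 against 2 cannot go below p = 0.3333 and was not used. Procedures were tested on simulated data with independent libraries and changes larger than that of any tested member. That test does not cover changes of the size reported. Coordinates come from GENCODE M21 and promoters from RefSeq.

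The members and all gene lists were chosen with earlier results of these data known. Members were named with each library's value where they passed or their groups did not overlap, and by range otherwise. Up to 4 genes were named per list, by adjusted p, and Max, Mga, Pcgf6 and Gtsf1 were chosen after their values were seen. Alternatives changed the pseudocount, filter, scaling, trend, replicate block, libraries and the source of p-values.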

Additional observations from a re-analysis of the deposited data

Results flagged for a closer look

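The effect of the treatment differed between 2i and SL for 4 of the 28 members tested, by a test of the difference itself (limma, adjusted over 12497 genes). The change in 2i minus the change in SL was -1.04 on the log2 scale for Sohlh2, -0.81 for Fkbp6, -0.49 for Tdrd12 and 0.65 for Sycp1. Of all genes, 5.55% had a lower and 18.4% a higher change in 2i. The level of Foxd3 did not bear out the label Foxd3-/- in 2i, so the difference is one between the libraries as labelled. Sycp1 did not pass after scaling, and the calls changed with the libraries in the fit. Medium and feeders also differ together between SL and 2i.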

How the results depend on the processing

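Counts of members called (higher/lower order) in the comparisons as reported were 0 and 0 in SL, 4 and 12 in 2i, 1 and 3 with overexpression and 1 and 3 for the difference between media. The pseudocount of 0.1 left each of these 8 counts as it was. Median-of-ratios scaling gave 2 higher in 2i, 0 higher with overexpression and 0 higher for the media. With no filter on low values 0 were higher and 0 lower with overexpression, and 0 higher for the media. Without the trend 0 were higher and 1 lower with overexpression, and 2 higher for the media. With all 12 libraries in 1 fit 1 was lower in SL, 2 higher in 2i, 8 lower with overexpression, and 0 higher and 1 lower for the media. The authors' p-values gave 1 lower in SL, 2 higher in 2i, and 2 higher and 6 lower with overexpression. With 1 library left out in turn, the lower counts ran from 0 to 2 in SL, 10 to 12 in 2i, 0 to 3 with overexpression and 1 to 3 for the media, and the higher counts from 0 to 0, 3 to 4, 0 to 0 and 0 to 2. A group left with 1 library is assumed to vary like the others. Hormad1 in 2i turned to -0.1614 with scaling and -0.3561 in the authors' fold, and ran from -0.08305 to 0.1302 with 1 library left out. Stag3 in 2i turned to -0.1682 and -0.251, and ran from -0.1039 to 0.1415. The cause was not tested. Of the other values of named members, 26 in 2i, 23 with overexpression and 24 for the media lost their call under an alternative. Without a call as reported, 5 in SL, 9 in 2i and 13 with overexpression gained one.

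With a replicate block, 10 members were lower in SL and 12 with overexpression, and for the media 2 were higher. In 2i the block gave 3 higher and 11 lower. The shares of all genes called with the block, or with all 12 libraries in 1 fit, are not given here. These counts therefore cannot be read as particular to the members. Replicate differences of the groups correlated at 0.605 in SL, -0.0539 in 2i and 0.596 with overexpression. With 2 numbers per comparison and labels that do not say what they mark, this does not establish pairing. FPKM gives no depth, so no counting interval could be set on low members.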
